A study of Mus musculus with 2 samples.

Results

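miR-378 and miR-33 are microRNAs (miRNAs, small RNAs that guide repression of messenger RNAs) whose genes lie inside genes of energy and sterol metabolism. They were taken by name, as the entries mmu-miR-378 and mmu-miR-33 without a star, and make up 2 of the 567 mouse miRNAs on the array. The samples were adipocyte-derived microvesicles, membrane vesicles that 3T3-L1 cells, a mouse preadipocyte line that turns into fat cells, shed into their medium. One preparation came from medium conditioned over 48 h from day 8 to day 10 of differentiation and the other from day 2 to day 4. All cells, per the labels' protocols, grew in high-glucose DMEM with 10% FCS. Their induction used 10 µg/ml insulin together with 0.25 µM dexamethasone and 0.5 mM 3-isobutyl-1-methylxanthine, and 100 ng of total vesicle RNA was labelled with Cy3 for each array. Since a single array (1 per window) was run, the differences were not checked in replicates and have no p-value. Errors given are the technical spread between spots of an array, except that the scanner software's gene signal comes with the software's own error.

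Intronic miRNAs are cut from the transcript of their host gene, so that a host and its miRNA can be made together. Ppargc1b, the host of miR-378, encodes PGC-1 beta, a coactivator of mitochondrial and fatty acid oxidation genes, and in mice both arms of the miR-378 hairpin are known to restrain oxidative metabolism, with Crat and Med13 among their targets. Srebf2, the host of miR-33, encodes SREBP-2, the transcription factor that turns on cholesterol synthesis and uptake, and miR-33 is known for repressing the cholesterol exporter Abca1 in liver and macrophages. In cultured fat cells miR-378 is known to rise with differentiation and to favour lipid storage.

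The mature arms of the mouse miR-33 hairpin are shown because the text turns on whether their probes gave any signal. They are RefSeq sequences of GRCm38.p6 from the plus strand, written 5′ to 3′ with the seed (bases 2 to 8), the stretch that pairs with target messages, in capitals.
miR-33-5p, chr15:82198127-82198147: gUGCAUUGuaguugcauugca
miR-33-3p, chr15:82198167-82198188: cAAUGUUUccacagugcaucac
The hairpin that holds both arms (capitals) spans 69 bases within Srebf2.
Mir33 hairpin, chr15:82198122-82198190: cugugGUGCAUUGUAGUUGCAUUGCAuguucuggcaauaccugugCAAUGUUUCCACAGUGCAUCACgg

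The array entry miR-33 is the 5p arm and miR-33* the 3p arm. The array files give positions on an unnamed genome build. They put the 3′ ends of these entries 41 bases apart, and the RefSeq arms above also end 41 bases apart. By those positions the 2 miR-33 probes pair with 20 and 21 bases of the 21-base miRNA, so both cover the seed in full. The 4 miR-33* probes pair with 13 to 16 bases at the 3′ end of a 22-base arm, so they miss most or all of its seed. Neither seed above was shared by another of the 1679 distinct mature mouse miRNAs in the table.

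miR-378 was read by probes with spans of 13 and 14 bases, at 61557492 to 61557504 and 61557492 to 61557505 of chromosome 18 in the array files. miR-378*, the other arm, had probes of 17 and 18 bases at 61557529 to 61557545 and 61557529 to 61557546. In GRCm38.p6 the RefSeq names table has Mir378a within Ppargc1b and lists 3 further genes of the family, Mir378b, Mir378c and Mir378d. The mature RNAs of that family are near-identical, so the miR-378 signal cannot be assigned to 1 gene.

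On both arrays 12493 spots were read, 11340 of them for mouse miRNAs, and no spot was saturated. A probe was counted as detected when more than 0.5 of its spots, outliers left out, carried the scanner software's flag for well above background, and a miRNA when at least 1 probe was. This rule found 166 of 567 miRNAs (29.3%) in day 8-10 vesicles, 156 (27.5%) in day 2-4 vesicles and 177 (31.2%) in at least 1 of them. Of the 2 members, miR-378 was detected on both arrays and miR-33 on neither. The dimmest detected probe read 5.55 intensity units at day 8-10 and 4.86 at day 2-4.

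miR-378 gave a clear signal in both preparations, and a higher one in the late vesicles. The 10 spots of its 13-base probe ran from 64.4 through a median of 68.4 to 75.001 intensity units in day 8-10 vesicles, and from 26.7 through 30.8 to 32.4 in day 2-4 vesicles. The 10 spots of its 14-base probe ran from 103 through 112 to 118 at day 8-10, and from 45.5 through 51.1 to 55.7 at day 2-4. For each probe, every late spot lay above every early spot, and all 20 late and 20 early spots were flagged well above background. Spots of 1 probe differed little within an array, with coefficients of variation of 4.53% and 4.78% at day 8-10 and of 5.34% and 7.13% at day 2-4. The highest of the negative-control spots, which carry no miRNA sequence, read 2.83 at day 8-10 and 2.70 at day 2-4, far below any miR-378 spot.

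**Figure D1:**
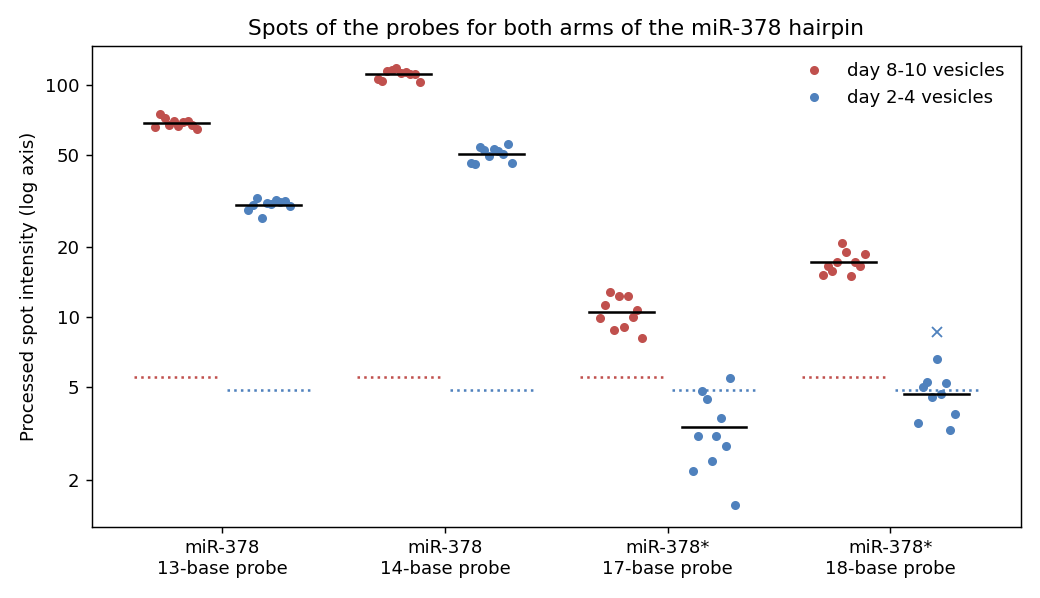
Processed intensity (log axis) of each spot for the 2 miR-378 probes and the 2 miR-378* probes, with day 8-10 left of day 2-4 for each probe. Black bars are means over spots, dotted lines mark the dimmest detected probe of each array (5.55 and 4.86), and the cross is an outlier spot left out. All late spots lie above the early spots of the same probe, and the early miR-378* spots lie around the dotted line.

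Before any scaling, the mean of the 13-base probe was 68.6 ± 3.11 at day 8-10 and 30.5 ± 1.63 at day 2-4 (SD over 10 spots), a ratio of 2.25. That of the 14-base probe was 111 ± 5.29 at day 8-10 and 50.4 ± 3.59 at day 2-4, a ratio of 2.20. The scanner software also gives a gene signal over both probes, on a scale of its own that is not the plain sum of these means. It was 119.6 with an error of 8.75 at day 8-10, and 53.6 with an error of 4.03 at day 2-4. The unscaled ratios of the 2 probes lay close together. Both probes start at the same position, and the gene signal comes from the same spots, so these readings are not independent of each other.

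To compare the arrays, signals were divided by each array's 75th percentile, taken over the 279 probes that both arrays detected. On that scale miR-378 was 2.53-fold higher in day 8-10 than in day 2-4 vesicles (log2 difference 1.34, spot SE 0.026). The 13-base probe alone gave a log2 difference of 1.36 (spot SE 0.032) and the 14-base probe one of 1.32 (spot SE 0.040), so the probes differed by no more than their spot errors. Both arrays detected 145 miRNAs, of which 23 (15.9%) had a gain of at least 2-fold and more than 2 spot SE in late vesicles and 11 (7.59%) a loss by the same rule. miR-378 was among the 23 and stood 14th of the 145 in order of the difference. The median log2 difference of the 145 was 0.20, with quartiles at -0.22 and 0.73, so miR-378 lay 1.13 above the median.

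The size of this difference moved with the processing, and its place among the other miRNAs moved less. With the 75th percentile taken over all mouse probes, the log2 difference of miR-378 was 0.83, or 1.78-fold, and no longer reached 2-fold. The median of the 145 was then -0.30, and the gains and losses of at least 2-fold numbered 10 and 29. Background correction by normexp gave 0.72, or 1.64-fold, 0.60 above a median of 0.12. That setting adds an offset of 50 to every spot, which shrinks ratios between the arrays before scaling, most where signals are dim. Quantile normalization gave 1.04, 1.15 above its median of -0.11. Over the 10 settings in which miR-378 could be ranked besides the reported one, it stood between 11th and 15th. No scaling, all-probe scaling and scaling to the median shift every log2 difference alike, so there its rank could not change. Each array was labelled from 100 ng of vesicle RNA, so the signals compare the makeup of equal RNA inputs. The number of vesicles and the RNA in each vesicle were not measured here, and RNA of the calf serum was not separated from that of the cells.

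**Figure D2:**
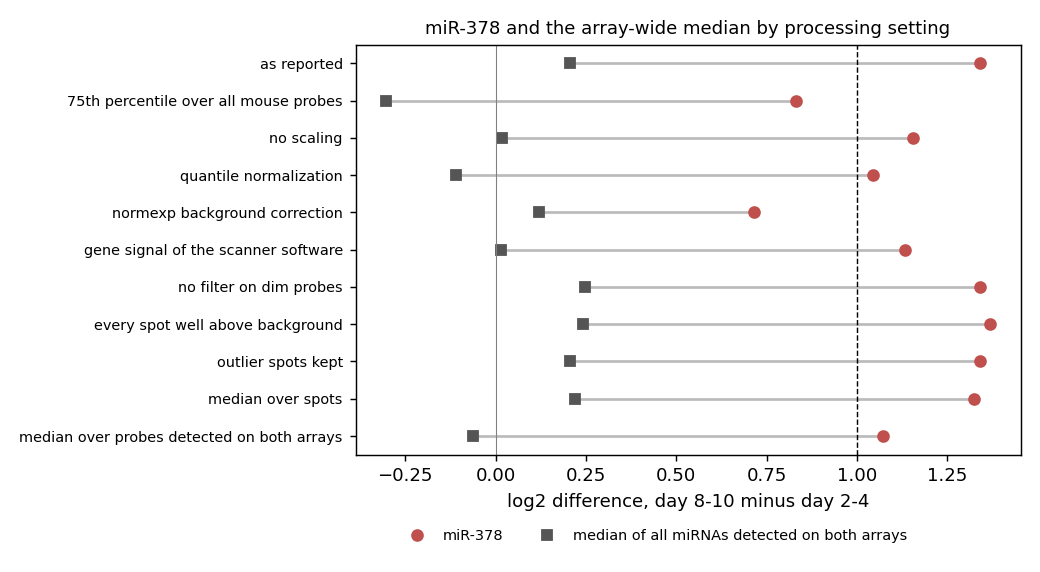
Log2 difference (day 8-10 minus day 2-4) of miR-378 (circles) and of the median miRNA detected on both arrays (squares) under 11 processing settings, with the reported one on top. The dashed line marks 2-fold. miR-378 lies between 0.72 and 1.37 and to the right of the median in each setting, and falls short of 2-fold under all-probe scaling and normexp.

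The other arm, miR-378*, crossed the detection limit between the windows. Its 17-base probe read from 8.14 through 10.4 to 12.9 intensity units over 10 spots in day 8-10 vesicles, and from 1.56 through 3.09 to 5.49 in day 2-4 vesicles. Its 18-base probe read from 14.97 through 17.0 to 20.8 at day 8-10, and from 3.28 through 4.69 to 6.59 over 9 spots at day 2-4, with 1 outlier spot at 8.59 left out. The late and early spots of a probe did not overlap. All 20 late spots were flagged well above background, against 3 of 19 early spots, although all 19 early spots were above the 95th percentile of the negative controls (1.25) and the scanner software marked the miRNA as detected on both arrays.

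By the detection rule used here miR-378* was thus detected in late vesicles alone, as were 21 of the 567 miRNAs (3.70%). On the reported scaling miR-378* was at least 3.03-fold higher at day 8-10. That bound sets its late signal against the dimmest detected early probe or, if higher, its own early signal. Early spots were first raised to the value of that dimmest probe. Bounds of at least 2-fold were found for 8 of those 21 (38.1%), and 6 of them exceeded that of miR-378*. With normexp the log2 difference of miR-378* was 0.33, with all-probe scaling 1.09, and with the gene signal of the scanner software 1.78. Both arms of the miR-378 hairpin therefore had higher signals in the late preparation, and whether they differed by different factors could not be tested.

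Detection of both arms of a hairpin was uncommon on these arrays. Of the 103 hairpins with a plain and a star entry, 6 (5.83%) had both detected at day 8-10 and 4 (3.88%) at day 2-4. The hairpins with both arms detected at day 8-10 were those of miR-140, miR-193, miR-199b, miR-378, miR-877 and miR-99b. For 3 of these, miR-193, miR-378 and miR-99b, the star arm was detected in late vesicles alone. miR-193 itself was 2.11-fold higher at day 8-10 with its star arm at least 1.87-fold higher. miR-99b stayed at 0.954-fold, with its star arm at least 1.52-fold higher. These folds and bounds hold for the reported scaling only. All-probe scaling, which took the log2 difference of miR-378 from 1.34 to 0.83, shifts every log2 difference alike and would lower them too. For miR-193* and miR-99b* the bound rests on 1 of 4 probes, kept because it was detected at day 8-10, which favours a late gain. Those probes read 8.02 and 6.92 at day 8-10, near the dimmest detected probe (5.55). Among all 114 star entries, 9 (7.89%) were detected at day 8-10 and 7 (6.14%) at day 2-4.

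miR-33 gave no signal above background in either preparation. Its 20-base probe read from -2.97 through a median of -0.57 to 0.77 intensity units over 10 spots in day 8-10 vesicles, and from -2.04 through -0.71 to 0.48 over 10 spots in day 2-4 vesicles. Its 21-base probe read from -2.33 through -0.13 to 1.41 over 10 spots at day 8-10, and from -2.20 through -0.67 to 0.53 over 9 spots at day 2-4. One further early spot of that probe, an outlier, read 2.27 and was also not well above background. The ranges of the windows overlapped for both probes. Processed intensities have the fitted background taken off, so a value around 0 means a spot no brighter than that background.

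The negative-control spots gave the same picture. They averaged -0.33 ± 1.02 at day 8-10 (SD, 656 spots) and -0.29 ± 0.98 at day 2-4 (660 spots), while the miR-33 spots averaged -0.46 ± 1.29 (20 spots) and -0.73 ± 0.83 (19 spots). None of the 20 late and none of the 19 early miR-33 spots exceeded the 95th percentile of the controls, at 1.43 for day 8-10 and 1.25 for day 2-4. None was flagged well above background, and the scanner software's weaker flag, for a positive signal that differs from background, was set on 3 late spots and 0 early spots. The software's gene signal was -0.61 with an error of 1.02 at day 8-10, and -0.97 with an error of 0.97 at day 2-4. No fold is given for miR-33, since both windows lay at background.

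**Figure D3:**
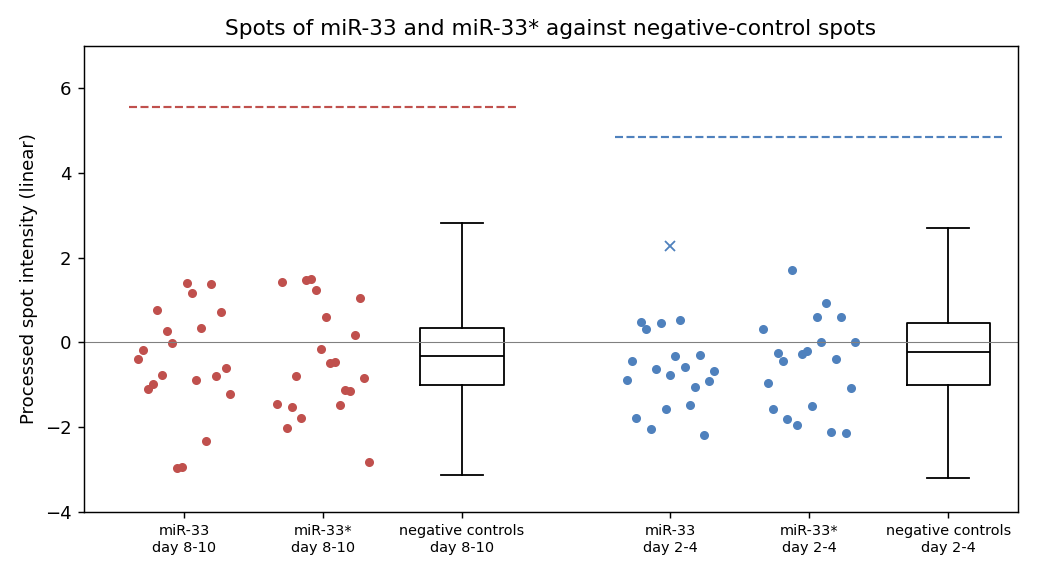
Processed intensity (linear axis) of each miR-33 and miR-33* spot, beside boxes for the negative-control spots of the same array (box, quartiles; line, median; whiskers, lowest and highest), with day 8-10 left and day 2-4 right. Dashed lines mark the dimmest detected probe (5.55 and 4.86), and the cross is an outlier spot left out. The spots of both arms lie within the range of the negative controls.

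miR-33* was undetected as well. Its 20 spots ran from -2.82 through a median of -0.65 to 1.495 in day 8-10 vesicles, and from -2.15 through -0.34 to 1.71 in day 2-4 vesicles. None was flagged well above background, and 3 late spots and 1 early spot exceeded the 95th percentile of the controls. Neither arm of the Srebf2 miRNA was therefore detectable at the signal of these arrays. Undetected entries were the majority, at 390 of 567 miRNAs (68.8%), so this result does not show that miR-33 was absent.

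The miR-33 probes are among the longer ones of the array. Of 1646 mouse probes with a position, with spans from 9 to 24 bases and a median of 17, the 287 with spans of at least 20 bases were detected on at least 1 array in 21.3% of cases. The 480 with spans of at most 14 bases, like both miR-378 probes, were detected in 23.5%. miR-33-5p has a GC content of 42.9%, against a median of 52.2% over the 1679 mature miRNAs, of which 20.2% have a lower one.

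miR-103 and miR-107, from introns of the pantothenate kinase genes that start coenzyme A synthesis, moved the same way as miR-378. miR-103, with genes within Pank2 and Pank3, had a mean signal of 248 at day 8-10 and 83.2 at day 2-4, and was 3.44-fold higher in late vesicles after scaling. miR-107, within Pank1, had 194 at day 8-10 and 79.9 at day 2-4, and was 2.76-fold higher. Their probes may share signal, as the sequences are near-identical. miR-335-5p and miR-335-3p, from an intron of Mest, a gene linked to fat cell enlargement, were detected on neither array, like miR-33. The list of miRNAs from introns of metabolic or adipose genes thus had 2 of its 4 array entries detected, both at least 2-fold higher, beside 31.2% detected over all miRNAs and 15.9% higher over all 145. miR-107 fell short of 2-fold with normexp (0.91) and with all-probe scaling (0.96). This list and those below were chosen with earlier results of these data known, so their shares describe the entries and test nothing.

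miRNAs inside protein-coding genes were set beside those without such a host. RefSeq genes were found for 548 of the 567 array miRNAs, and 293 of these lay within a protein-coding gene on either strand. Both arrays detected 82 hosted miRNAs, with 11 gains (13.4%) and 6 losses (7.32%) of at least 2-fold in late vesicles, and 57 miRNAs without such a host, with 11 gains (19.3%) and 4 losses (7.02%). The median log2 difference was 0.24 for hosted miRNAs and 0.20 for those without a host. These shares lie near the 15.9% and 7.59% over all 145.

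**Figure D4:**
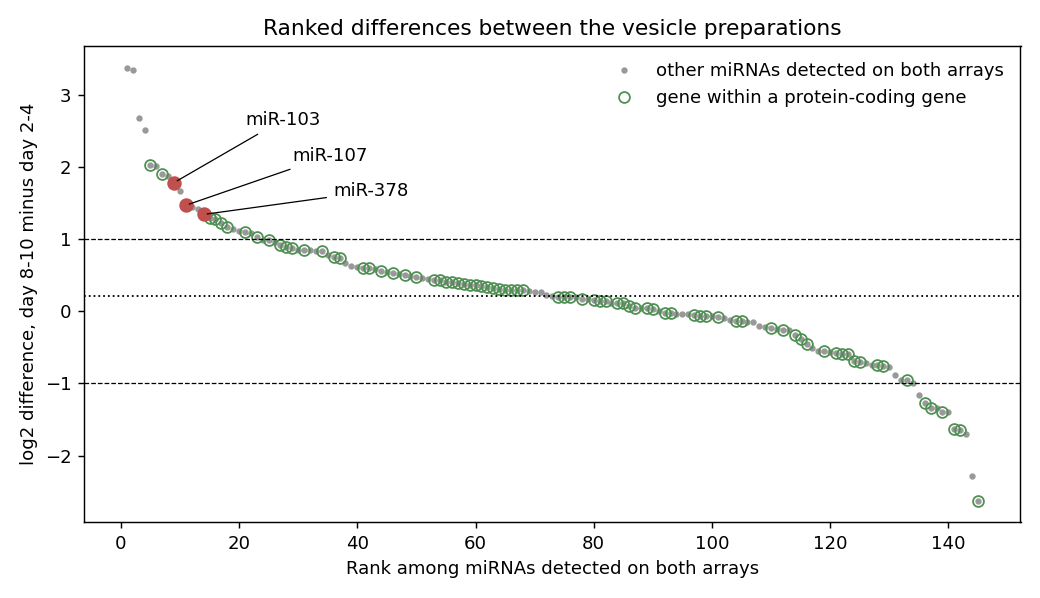
Log2 difference (day 8-10 minus day 2-4) of the 145 miRNAs detected on both arrays, in rank order. Open circles mark miRNAs within a protein-coding gene, filled circles miR-378, miR-103 and miR-107, which also lie within one, dashed lines 2-fold either way and the dotted line the median of 0.20. miR-378 stands 14th and hosted miRNAs are spread over the whole range.

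The miRNAs whose difference came nearest to that of miR-378, by the gap in log2 difference over the 2 arrays, were miR-671-5p (1.30), miR-721 (1.28), miR-210 (1.41) and miR-365 (1.44). The gaps were 0.043 to 0.097. miR-365 is known for its part in brown fat differentiation and miR-210 for its induction by hypoxia. With normexp these fell to 0.57, 0.60, 0.53 and 0.78, beside 0.72 for miR-378. The RefSeq table places Mir671 within Chpf2 and Mir721 within Cux1.

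miRNAs known for roles in cholesterol and fatty acid handling, the field in which miR-33 is best known, were mixed in direction. Of 20 on the array, 18 were detected on at least 1 array, beside 31.2% of all miRNAs. Of the 15 detected on both, 4 were higher by at least 2-fold at day 8-10 and 1 lower, beside 15.9% and 7.59% of all 145. Of the remaining entries, 3 were detected at day 8-10 alone and 2 on neither array. Their median log2 difference was 0.62, against 0.20 over all 145. Of the 4 gains, miR-30c (1.03) passed 2-fold in only 3 of the 11 settings, with 0.40 under normexp and 0.52 under all-probe scaling. miR-183 fell short of 2-fold with normexp (0.96). The highest were miR-96 (3.37) and miR-183 (2.68), whose locus SREBP-2 is known to activate in liver. miR-96 read 88.2 at day 8-10 and 9.94 at day 2-4, and miR-183 read 73.0 at day 8-10 and 13.4 at day 2-4. The lowest were miR-370 (-1.70) and miR-128 (-0.33), and miR-128 turned to 0.030 with normexp. Liver miR-122, the classic miRNA of hepatic lipid metabolism, was detected on neither array.

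miRNAs tied to brown fat or oxidative genes, the field of miR-378, had a median difference near that of all miRNAs. Of 19 on the array, 14 were detected on at least 1 array, beside 31.2% of all miRNAs. Both arrays detected 11, 1 of them (miR-365) at least 2-fold higher and none at least 2-fold lower, against 15.9% and 7.59% over all 145. miR-182 was detected at day 8-10 alone and, on the reported scaling, at least 4.48-fold higher. miR-155 and miR-455 were detected at day 2-4 alone, and 5 were detected on neither array. miR-365 fell short of 2-fold with normexp (0.78) and with all-probe scaling (0.93). The median of the 11 was 0.11, of the opposite sign under 5 of the 10 other settings. Among those detected on both arrays, the highest besides miR-365 was miR-106b (0.92), and the lowest were miR-328 (-0.59) and miR-125b-5p (-0.25). With normexp these 3 came to 0.39, -0.0089 and -0.17, and with all-probe scaling to 0.41, -1.10 and -0.76. miR-328 rests on 1 of 2 probes, which read 7.57 at day 8-10, near the dimmest detected probe.

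The listed adipocyte marker miRNAs were higher at day 8-10, as miR-378 was, and the detected fibroblast markers were lower. Both lists were chosen with earlier results of these data known, so their shares beside those of all miRNAs are no test. All 6 adipocyte markers were detected on both arrays, where 31.2% of all miRNAs were detected on at least 1, and the 4 gains stand beside 15.9% of all 145. The markers ran from miR-148a (1.90) and miR-103 (1.78) down to miR-30a (0.85) and miR-143 (0.77), with summed signals of 733 at day 8-10 and 296 at day 2-4. Besides miR-148a and miR-103 the gains were miR-107 and miR-30e, which passed 2-fold in 9 and in only 5 of the 11 settings. Both fell short with normexp (0.91 and 0.37) and with all-probe scaling (0.96 and 0.58). Of the fibroblast and mesenchymal markers, 3 of 4 were detected, 2 of them at least 2-fold lower at day 8-10 (7.59% over all 145), with miR-214 at -1.63, miR-199a-5p at -1.40 (-0.67 with normexp) and miR-199b at -0.95, and summed signals of 339 at day 8-10 and 862 at day 2-4. miR-145 was the undetected one. The part of this shift in the miR-378 difference was not tested.

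Of markers of other cells and tissues known for these miRNAs, 0 of 4 for muscle, 2 of 3 for liver, 2 of 5 for macrophages and 5 of 5 for blood and serum were detected on at least 1 array, beside 31.2% of all miRNAs. Muscle is known to be rich in miR-378. Of the 3 liver markers, miR-192 was detected on both arrays (1.14, or 0.22 with normexp), miR-194 at day 8-10 alone and miR-122 on neither. Of the 5 macrophage markers, miR-223 was detected on both arrays (-0.22, turning to 0.041 with normexp), miR-155 at day 2-4 alone and the rest on neither. The 5 blood and serum markers were all detected, 4 of them on both arrays and within 2-fold, with miR-16 at 0.20, miR-486 at 0.046, miR-451 at 0.043 and miR-223 as above, and miR-16, miR-486 and miR-451 each turned negative under at least 3 of the 10 other settings. Their summed signals were 799 at day 8-10 and 869 at day 2-4.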

How the data were processed

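The authors deposited 1 Agilent Feature Extraction 9.5.3.1 scan per time window, both 1-colour, and a series value table that equals the processed intensity of all 12493 spots on each array. The deposited intensity values are linear per the file headers, with a fitted background surface subtracted and no normalization between arrays. The deposited flags and the software's gene signal were used as given. Control spots and outlier spots were left out. Signals were divided by each array's 75th percentile over the 279 probes that both arrays detected (95.2 at day 8-10, 108 at day 2-4), values were set to no lower than the dimmest detected probe, log2 was taken, and spots, then probes detected on at least 1 array, were averaged. The call rule was 2-fold and over 2 spot SE. With 1 array a window there was no test, and the number of arrays limits the precision. Lists came from general knowledge, and members and lists were chosen with earlier results of these data known. The named miRNAs were the members, their star arms, the 4 nearest in log2 difference, detected intronic entries, and the 2 highest and 2 lowest of each other list. Marker miRNAs, the hairpins with both arms detected and those at 0 or undetected were named besides. Alternatives were another scaling, background correction (normexp in limma 3.58.1, offset 50), probe filter, spot summary and outlier handling. The calculation was tested on simulated data. Python 3.11.15 and R 4.3.3 were used.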

Additional observations from a re-analysis of the deposited data

How the results depend on the processing

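The log2 difference of miR-378 stayed positive under all 12 alternatives and past 2-fold under 10, from 0.72 to 1.37. It moved by more than the spot SD of 0.11 with the 75th percentile over all mouse probes (0.83), no scaling (1.15), quantile normalization (1.04), normexp (0.72), the scanner software's gene signal (1.13) and, chosen after seeing the data, the median over probes detected on both arrays (1.07). It moved by less with no probe filter, stricter detection, outlier spots kept, medians over spots and either probe alone, the last also chosen after seeing the data. The first 3 of these added or removed none of its own spots, as all were well above background and none was an outlier. Of the 34 miRNAs at least 2-fold apart, 10 were so with normexp, 5 higher and 5 lower. Other settings gave 31 to 39. Higher and lower calls, 23 and 11 as reported, were 10 and 29 with all-probe scaling, 17 and 15 with no scaling, 17 and 17 with quantile normalization, 19 and 17 with the gene signal and 16 and 19 with the median. Normexp adds an offset of 50 to every spot, which shrinks ratios between the arrays before scaling. A changed scaling constant shifts all log2 differences alike. Other causes were not tested. miR-33 had no log2 difference in any setting, and 0 of its probes were detected in each setting where detection was recomputed. Spot signals below the dimmest detected probe (5.55 at day 8-10, 4.86 at day 2-4) were set to its value. No paired analysis was possible because each window had 1 array.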
